A study of Mus musculus with 3 samples.

Results

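B cells carrying *Vpreb3* RNA without *Fcer2a* RNA were examined by single-cell RNA-Seq (scRNA-Seq) in lungs taken whole at P14 from 3 wild-type mice. These were C57BL/6 animals that breathed room air throughout, counted from day 1 of life. The animals, numbered 2, 3, and 4 by the submitters, form 1 condition, and each gave 1 library from 16000 loaded cells. The question here is how these B cells differ from the B cells of the same lungs that carry *Fcer2a* and no *Vpreb3*, and from other immune cells. Barcodes needed 200 or more genes and no more than 20% mitochondrial UMIs (unique molecular identifiers, counted RNA molecules), which left 7642 of 9644 cells and 22300042, 20804836, and 23442355 UMIs in mice 2, 3, and 4. A cell was taken as a B cell when it had at least 3 UMIs of *Cd79a* and *Cd79b* together and at least 1 of *Ms4a1*, no UMI of *Cd3e*, *Nkg7*, or *Cdh5*, and fewer than 20 of *S100a8* and *S100a9* together. Of 1719 B cells, 756 had at least 1 *Vpreb3* UMI and no *Fcer2a* UMI, and these are the *Vpreb3* B cells described here (155, 407, and 194 in mice 2, 3, and 4), or 756 of all 7642 kept cells. They were chosen by measured UMIs of the gate genes, so those genes are described below and not tested.

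VPREB3 is a small protein that associates with immunoglobulin chains inside developing B cells, and its RNA is known to be abundant from the precursor to the immature stage. Newly formed B cells leave the bone marrow, or the spleen and liver in early life, as immature and transitional cells bearing surface IgM. They mature into follicular B cells, which gain surface IgD, the IgE receptor CD23 encoded by *Fcer2a*, and the complement receptor CR2. These are textbook stages, and the classes below were cut on RNA of 2 genes, not on surface protein.

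*Vpreb3* (ENSMUSG00000000903) lies on the plus strand at chr10:75943057-75949657 (GRCm38, GENCODE M21), and *Chchd10*, treated below, lies 5310 bases upstream on the same strand at chr10:75933130-75937747. *Fcer2a* (ENSMUSG00000005540) is at chr8:3681737-3694175 on the minus strand. The 250 bases before the annotated RefSeq start of *Vpreb3* (GRCm38.p6, chr10:75948050-75948299, plus strand) and of *Chchd10* (chr10:75932880-75933129, plus strand) are shown because *Chchd10* was high in the cells that *Vpreb3* chose. Capitals mark the octamer ATGCAAAT, a motif bound by POU factors at immunoglobulin promoters, or its reverse complement ATTTGCAT.
Vpreb3: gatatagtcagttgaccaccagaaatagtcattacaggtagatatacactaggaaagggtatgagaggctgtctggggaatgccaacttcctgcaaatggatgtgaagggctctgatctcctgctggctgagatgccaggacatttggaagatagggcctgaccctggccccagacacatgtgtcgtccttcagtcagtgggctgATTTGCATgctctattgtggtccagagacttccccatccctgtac
Chchd10: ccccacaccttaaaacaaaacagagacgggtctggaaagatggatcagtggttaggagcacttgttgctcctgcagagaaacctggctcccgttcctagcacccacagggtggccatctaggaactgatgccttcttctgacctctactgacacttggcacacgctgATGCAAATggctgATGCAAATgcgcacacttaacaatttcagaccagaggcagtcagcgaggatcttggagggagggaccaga
The octamer begins 45 bases before the RefSeq *Vpreb3* start, and 83 and 70 bases before the *Chchd10* start. The RefSeq start of *Vpreb3* differs from the GENCODE start given above. Its window therefore lies inside the GENCODE span chr10:75943057-75949657, not upstream of it. On either strand it occurred in 526 of 32851 promoter windows of this length (1.60%). Among the largest changes named below, none of the 7 higher genes with a window held it, and 1 of the 11 lower genes did. The match is a description of sequence, and binding was not measured.

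*Vpreb3* B cells were the largest of the 4 B cell classes in every mouse. They made up 41.1% of B cells in mouse 2 (exact 95% binomial interval 36.1% to 46.3%), 47.8% in mouse 3 (44.4% to 51.2%), and 39.5% in mouse 4 (35.2% to 44.0%), or 42.8% ± 4.41 (SD, n = 3). Intervals cover counting error only. B cells with both RNAs made up 25.4% ± 3.14, those with *Fcer2a* alone 17.6% ± 0.135, and those with neither 14.2% ± 1.5. Among all kept cells the *Vpreb3* B cells were 9.82% ± 5.07, with mouse 3 at 15.6% above mice 2 and 4 at 6.50% and 7.31%. The sizes of the other classes depended on UMI depth. With cells thinned to 2000 UMIs, B cells with both RNAs made up 14.3% ± 2.45 and those with neither 28.7% ± 2.36, so their order turned. *Fcer2a* alone was then at 18.5% ± 0.833, and *Vpreb3* B cells stayed the largest class at 38.6% ± 5.08.

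**Figure D1:**
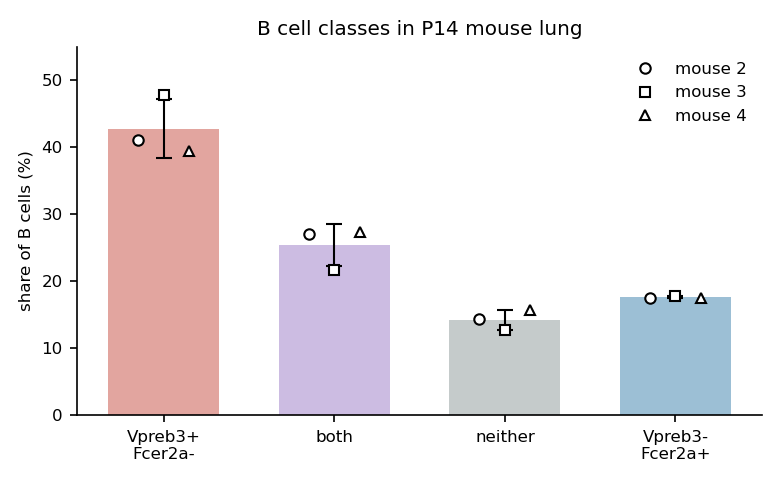
Share of B cells (%) in each of 4 classes cut on *Vpreb3* and *Fcer2a* UMIs; bars are means of 3 mice, error bars the SD, and symbols single mice. *Vpreb3* B cells without *Fcer2a* lie between 39.5% and 47.8%, above the other 3 classes in each mouse.

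The RNAs that defined the gate are given as a description only. Members held a median of 27, 27, and 26 *Cd79a* and *Cd79b* UMIs in mice 2, 3, and 4, with a lowest sum of 6, so no member lay at the threshold of 3 and no cell just under it at 2. *Ms4a1* was at its threshold of 1 UMI in 13 members. *Vpreb3* was at 1 UMI in 177 members, at 2 in 132, and at 3 or more in 447. *Vpreb3* averaged 997 ± 85.8 counts per 1000000 summed UMIs (CPM) in members and 489 ± 15.6 in B cells with both RNAs, of which 104 of 421 held a single *Fcer2a* UMI. Endothelial cells, which should lack the gene, gave a *Vpreb3* UMI in 2 of 407, 1 of 260, and 1 of 397 cells, at median depths of 7593, 8077, and 7461 UMIs against 4179, 4030, and 3904 in B cells. A UMI of *Vpreb3* was found in 60.7%, 55.1%, and 60.9% of B cells with *Fcer2a* and in 74.2%, 79.0%, and 71.6% of B cells without it. Thinned to 2000 UMIs per cell the shares were 46.6%, 38.4%, and 45.2% against 56.6%, 62.8%, and 52.4%.

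B cell markers that the gate did not use differed in how many members held a UMI. *Ly6d*, a lymphoid surface protein, was detected in 99.2% of members, and *Spib*, an ETS-family transcription factor of B cells, in 91.4%. *Pou2af1* was detected in 75.9% and *Fcmr* in 62.2%. Markers of other lineages were low. The T cell list summed to 13.3 ± 6.15 CPM, most of it *Lck* at 10.9 with *Cd8a* at 0, and the NK cell list to 1.95 ± 1.78, with *Ncr1* and *Klrb1c* at 0. The list for neutrophils summed to 6.55 ± 6.06, for dendritic cells to 2.78 ± 2.62 with *Siglech* at 0, and for red cells to 0.909 ± 0.814 with *Hbb-bs* at 0. Of the endothelial list, *Pecam1*, which B cells also express, made up 216 of 220 CPM. The macrophage list summed to 75.4, 106, and 253, led by *Lyz2* with *C1qa* at 0. Epithelial RNA was uneven, at 574, 226, and 4008 in mice 2, 3, and 4, led by *Sftpc*, and the stromal list summed to 281, 323, and 372, led by *Col3a1*. The part of this other-lineage RNA in the differences below was not tested gene by gene, but the counts without mixed droplets are given.

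Counts were summed per mouse and class, and *Vpreb3* B cells were compared with the 303 B cells that had *Fcer2a* and no *Vpreb3* (66, 151, and 86 cells). *Rag1*, *Chchd10*, *Cd24a*, *Spib*, and *Iglc1* were higher in the members, and *Bcl2*, *Ighd*, and MHC class II genes were lower. Of 7032 genes tested, 265 (3.77%) were higher and 281 (4.0%) lower in *Vpreb3* B cells (edgeR quasi-likelihood test, Benjamini-Hochberg adjusted p under 0.05), or 546 (7.76%) in either direction. Without TMM scaling the split was 371 higher and 203 lower. Without mixed droplets, which held 20 or more UMIs of endothelial, epithelial, stromal, and macrophage markers, it was 301 and 377. Some of these markers moved with the comparison. In *Fcer2a* B cells the stromal list summed to 59.4, 58.7, and 463 CPM, under the members in mice 2 and 3 and above them in mouse 4, and the epithelial list to 475, 3541, and 617. *Mgp*, a matrix protein gene of stromal cells, was higher in members (64.4, 70.5, and 117 against 21.9, 19.1, and 31.9, 1.74 ± 0.29, adjusted p = 0.000165), and it was the only 1 of 4 stromal genes called. All 4 were called higher without mouse 4 or without marked doublets, 2 with the mouse as a block, and none of the 2 testable ones without mixed droplets, which these markers themselves define. *Pecam1* was lower (-0.39 ± 0.12, adjusted p = 0.0466). That call was lost without mouse 2 or mouse 4, with DESeq2, without TMM scaling, and under a filter of 500 genes and 10% mitochondrial UMIs. It was also lost without members that had a *Rag1* or *Rag2* UMI and without the low-count filter. None of 4 epithelial genes tested was called. All 4 were lower without mouse 4, 3 were lower without the members that had a *Rag1* or *Rag2* UMI, and 1 was higher without mouse 3. The split of all tested genes was 133 and 156 without mouse 2 and 106 and 117 without mouse 3. The groups did not overlap in 25.1% of genes tested. The classes differed in depth, with median UMIs per cell of 3643, 3724, and 3576.5 in members and 4530.5, 4077, and 3950.5 in *Fcer2a* B cells. Mitochondrial shares of UMIs were 10.07% ± 0.199 against 11.45% ± 0.0962. Both were lower in members of 3 of 3 mice (exact permutation p = 0.1 each, 0.125 adjusted, and 0.25 each when paired by mouse). Levels below are in CPM, and log2 fold changes carry their standard error and the edgeR adjusted p. 10x libraries count transcript ends, so levels of different genes are not per length and are compared within a gene only.

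**Figure D2:**
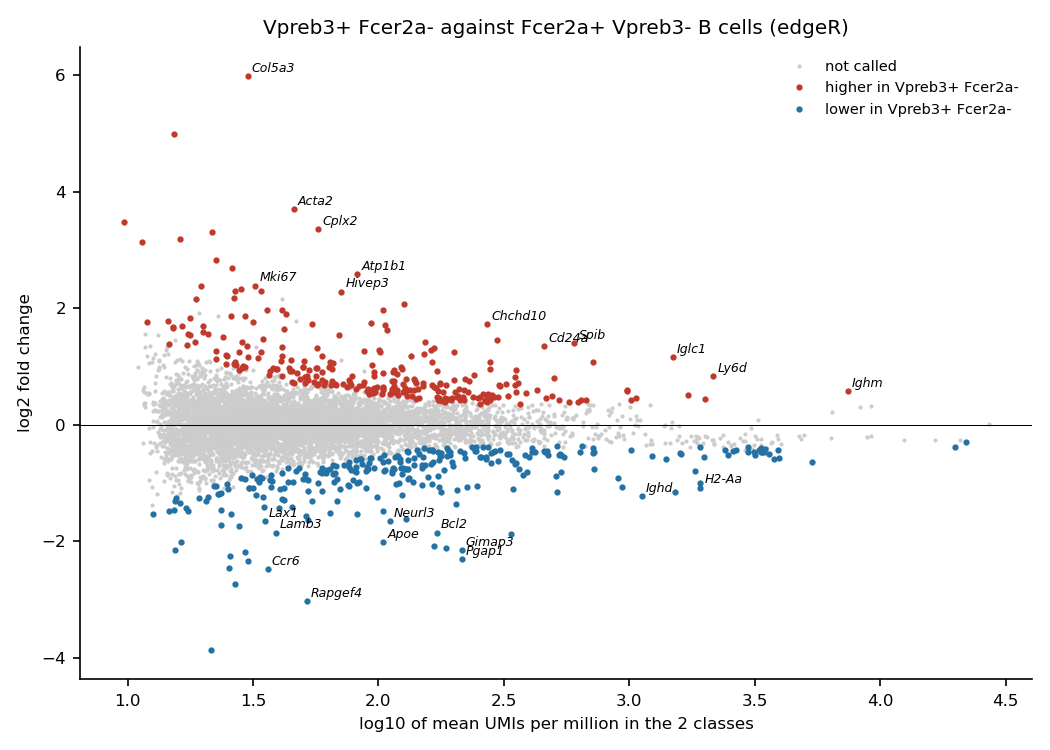
log2 fold change of each tested gene (edgeR, *Vpreb3* B cells against *Fcer2a* B cells) against the log10 of its mean CPM; 265 genes are higher (red), 281 lower (blue). *Rag1*, at 0 in the *Fcer2a* class, is left out.

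Of 12 genes of precursor B cells, 3 could be tested, and members held few or no UMIs of several others. *Rag1*, a subunit of the recombinase that rearranges immunoglobulin genes, was at 28.3, 27.7, and 25.1 CPM in members of mice 2, 3, and 4, and no UMI was found in *Fcer2a* B cells of any mouse. With 87 UMIs against a floor of 3 counts over the *Fcer2a* class, it was at least 12.5-fold higher. *Rag1* passed the low-count filter through the members alone and had to be higher, so this describes its level and is no test. It was too low to test under a filter of 500 genes and 10% mitochondrial UMIs. *Chchd10*, a mitochondrial protein gene near *Vpreb3*, was at 475, 382, and 411 in members against 134, 114, and 112. The groups did not overlap, and the log2 fold change was 1.73 ± 0.14 (adjusted p = 2.82e-09). Of 13 other annotated genes within 100 kb of *Vpreb3*, 3 were tested and *Chchd10* alone was called, while *Mif* (0.23 ± 0.16) and *Smarcb1* (0.25 ± 0.18) did not pass. *Myl4*, a myosin light chain, rose by 2.16 ± 0.39, a call lost without mouse 3. The other 9 genes of the list of 12 were too low to test. Members held no UMI of *Dntt*, the terminal transferase, of *Igll1* or *Vpreb2*, parts of the surrogate light chain, or of *Arpp21*, and 3 of *Vpreb1* and 11 of *Il7r*, the interleukin 7 receptor. A count of 0 allows up to 0.937 CPM.

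RNAs of immature and transitional B cells followed. *Cd24a*, a surface glycoprotein high on newly formed B cells, was at 657, 713, and 615 in members against 356, 195, and 202. All 3 member values stood above all 3 others, with a log2 fold change of 1.35 ± 0.16 (adjusted p = 1.53e-06). *Stmn1*, a microtubule regulator, *Myb*, a progenitor transcription factor, and *Cd93*, a marker of transitional B cells, rose by 1.24 ± 0.28, 0.97 ± 0.29, and 0.77 ± 0.23. *Cd93* and *Myb* lost their calls when the members with a *Rag1* or *Rag2* UMI were left out, with log2 fold changes of 0.57 and 0.79 (adjusted p = 0.136 and 0.122). *Cd93* also lost it whichever mouse was left out, *Myb* without mouse 2 or mouse 3, and *Stmn1* without mouse 3. The list had 4 of 8 tested genes higher and 0 lower, with a median log2 fold change of 0.80 against 0.01 over all genes. Without mice 2, 3, and 4 in turn, 2, 1, and 3 genes were higher.

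Of the B cell identity list, 7 of 16 genes were higher and 1 was lower (median 0.32), or 9 and 3 with the mouse as a block. Leaving out mouse 2 or mouse 3 left 4 and 3 genes higher. *Spib* was at 878, 994, and 802 against 306, 349, and 293, again without overlap (1.40 ± 0.12, adjusted p = 1.13e-08). *Cd72*, a coreceptor that dampens receptor signaling, rose by 1.24 ± 0.14, and *Ly6d* by 0.83 ± 0.12. *Siglecg*, *Pax5*, *Fcrla*, and *Ebf1* rose by 0.58 ± 0.11, 0.49 ± 0.12, 0.46 ± 0.11, and 0.44 ± 0.11, of which *Siglecg* failed without mouse 3, *Pax5* without mouse 2 or mouse 3, and *Fcrla* and *Ebf1* whichever mouse was left out. *Pax5* and *Ebf1* also failed against all *Fcer2a* B cells (adjusted p = 0.13 and 0.109). In the other direction, *Fcmr*, the IgM Fc receptor, fell by 0.81 ± 0.13. *Blk*, a Src-family kinase, did not pass (-0.06 ± 0.11). Of the 16 receptor signaling genes, 5 were higher and none lower, or 7 and 1 with the block. The 5 were *Cd72*, *Siglecg*, *Ptpn6*, a phosphatase (0.80 ± 0.11), and the kinases *Lyn* (0.47 ± 0.11) and *Syk* (0.39 ± 0.12), of which *Lyn* failed without mouse 3 and *Syk* whichever mouse was left out. Without mouse 3, only 2 were higher. Among 25 tested transcription factors, 6 were higher, with *Irf8* at 0.72 ± 0.11 and *Tcf3*, which failed without mouse 3, at 0.50 ± 0.12, and 2 lower, *Mef2c* and *Satb1* (-0.91 ± 0.12 and -0.89 ± 0.14). The higher ones were 3 without mouse 2 and 2 without mouse 3.

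Immunoglobulin constant genes were skewed toward IgM. *Ighm* was at 8726, 9611, and 8981 in members and 5781, 5701, and 5699 in *Fcer2a* B cells (0.58 ± 0.10, adjusted p = 0.000312). *Ighd* was at 663, 679, and 773 against 1491, 1653, and 1476 (-1.22 ± 0.12, adjusted p = 3.43e-08). The *Ighd* share of *Ighm* and *Ighd* UMIs was 7.06%, 6.60%, and 7.93% in members and 20.5%, 22.5%, and 20.6% in the other class, lower in 3 of 3 mice. The exact 2-sided permutation test, unpaired, gave p = 0.1, the smallest it can give with 3 values against 3, and 0.125 adjusted over 5 comparisons. Both classes came from the same 3 mice, and the exact test paired by mouse gave p = 0.25, also its smallest. *Iglc1*, a lambda constant gene, was at 2227, 2106, and 1954 against 804, 929, and 904 (1.16 ± 0.12, adjusted p = 7.9e-08). In this fit *Iglc2*, *Iglc3*, and *Igkc* did not pass (*Igkc* 0.30 ± 0.11, edgeR adjusted p = 0.107), though *Igkc* did with the mouse as a block (6.23e-05). Against 2 constant genes higher here, 3 were higher without TMM scaling and with cells thinned to 2000 UMIs. The lambda share of light chain UMIs was 33.0% ± 1.45 and 33.2% ± 1.03 (permutation p = 0.7, exact). *Iglc* genes are related copies, and counting may split reads between those most alike. How far that touches *Iglc1* was not tested.

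Cell by cell, 398 members had at least 10 *Igkc* UMIs and fewer than 10 of *Iglc2* and *Iglc3* together. *Iglc1* was detected in 349 of these (87.7%), and in 81 of 105 such *Fcer2a* B cells (77.1%). In these cells *Iglc1* was at 1783, 1285, and 1399 CPM in members of mice 2, 3, and 4 and at 445, 695, and 661 in *Fcer2a* B cells, without overlap. Other immune cells, which should lack the gene, had *Iglc1* in 12 of 1022 cells (1.17%), at a median depth of 3778 UMIs averaged over mice, against 699 of all 756 members (92.5%) at 3648. At least 10 UMIs of *Igkc* and at least 10 of *Iglc2* and *Iglc3* together were present in 36.9% of members and 56.1% of *Fcer2a* B cells. These cutoffs are raw UMIs, and median depths averaged over mice were 3648 in members and 4186 in *Fcer2a* B cells. The part of depth in these cell counts was not tested.

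**Figure D3:**
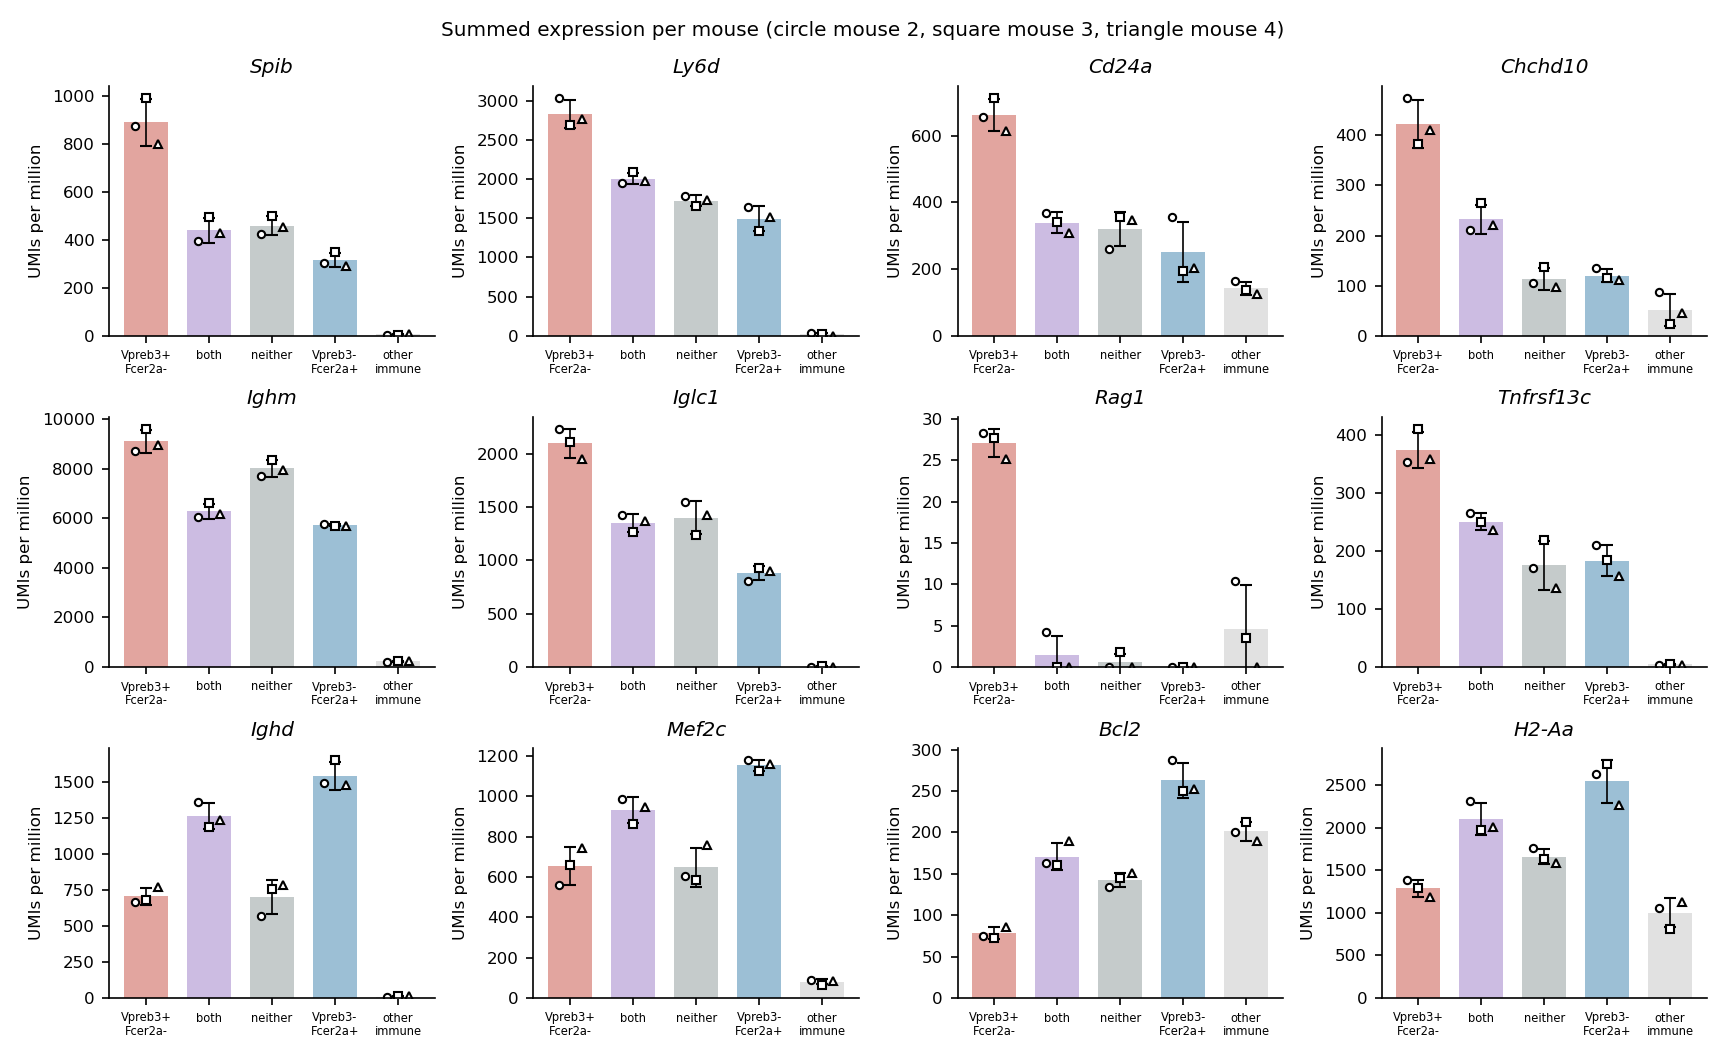
CPM (linear axes from 0) of 12 genes in the 4 B cell classes and other immune cells; bars are means of 3 mice, error bars the SD, and symbols single mice. *Spib*, *Ly6d*, *Cd24a*, *Chchd10*, and *Rag1* are highest in *Vpreb3* B cells, while *Ighd*, *Mef2c*, *Bcl2*, and *H2-Aa* are highest in *Fcer2a* B cells.

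Genes of follicular B cells were lower. Of 18 tested, 11 fell, 1 rose, and 6 did not pass (median -0.69). Those that fell numbered 8, 9, and 8 without mice 2, 3, and 4 in turn, and 7 under the filter of 500 genes and 10% mitochondrial UMIs. *Bcl2*, an inhibitor of apoptosis, was at 75.4, 72.8, and 86.2 against 288, 250, and 253 (-1.85 ± 0.13, adjusted p = 2.89e-10). The highest member value lay well under the lowest of the other class. *Cr2*, *Zfp318*, which favors IgD RNA, and *Icosl* fell, with log2 fold changes of -1.08 ± 0.17, -1.07 ± 0.13, and -0.99 ± 0.26. The *Icosl* call failed without mouse 2 or mouse 4. *Tnfrsf13c*, the BAFF receptor gene, was the exception, at 354, 410, and 359 in members against 209, 183, and 157, without overlap (0.96 ± 0.12, adjusted p = 4.28e-06). A further receptor for BAFF, *Tnfrsf13b*, rose by 0.48 ± 0.12 and failed without mouse 3. Of 12 homing genes, 6 fell and none rose, and *Ccr6*, a chemokine receptor, fell most (-2.47 ± 0.30), from 61.1 ± 6.80 to 11.2 ± 6.62. *Ccr6* was under the low-count filter in members of mice 2 and 3, so it entered the test only through the *Fcer2a* class. Without mice 2, 3, and 4 in turn, 5, 4, and 3 homing genes fell, and 3 did under the filter of 500 genes. *Ccr7*, a chemokine receptor, and *Itgb7*, an integrin, lost their calls without mouse 3 or mouse 4, and *Gpr183*, an oxysterol receptor, without mouse 2 or mouse 4. *S1pr1* (0.11 ± 0.13) and *Cxcr5* (-0.31 ± 0.14) did not pass. The survival list held 2 higher genes of 8, both BAFF receptors, and 2 lower, *Bcl2* and *Bcl2l11*, the latter failing without mouse 2 or mouse 3.

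Antigen presentation genes were lower together in members than in *Fcer2a* B cells. Of 13 tested, 10 were lower and none higher (median -0.73), or 7, 6, and 8 without mice 2, 3, and 4 in turn. *H2-Aa*, an MHC class II chain, was at 1380, 1295, and 1185 against 2630, 2744, and 2263 (-1.08 ± 0.12, adjusted p = 3.52e-07), with no overlap. *H2-Eb1* and *H2-Ab1* were at -1.15 ± 0.12 and -0.99 ± 0.11, and *Ciita*, the class II transactivator, at -0.73 ± 0.18, a call lost whichever mouse was left out. The peptide-loading genes *H2-DMa*, *H2-DMb1*, *H2-DMb2*, *H2-Oa*, and *H2-Ob* were also lower, as was *Cd83*. Of these, *H2-DMa* failed without mouse 3, *H2-Oa* without mouse 2 or mouse 3, and *Cd83* whichever mouse was left out. *Cd74*, the invariant chain, did not pass (-0.21 ± 0.12, adjusted p = 0.348), though it did with the mouse as a block (0.0101).

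**Figure D4:**
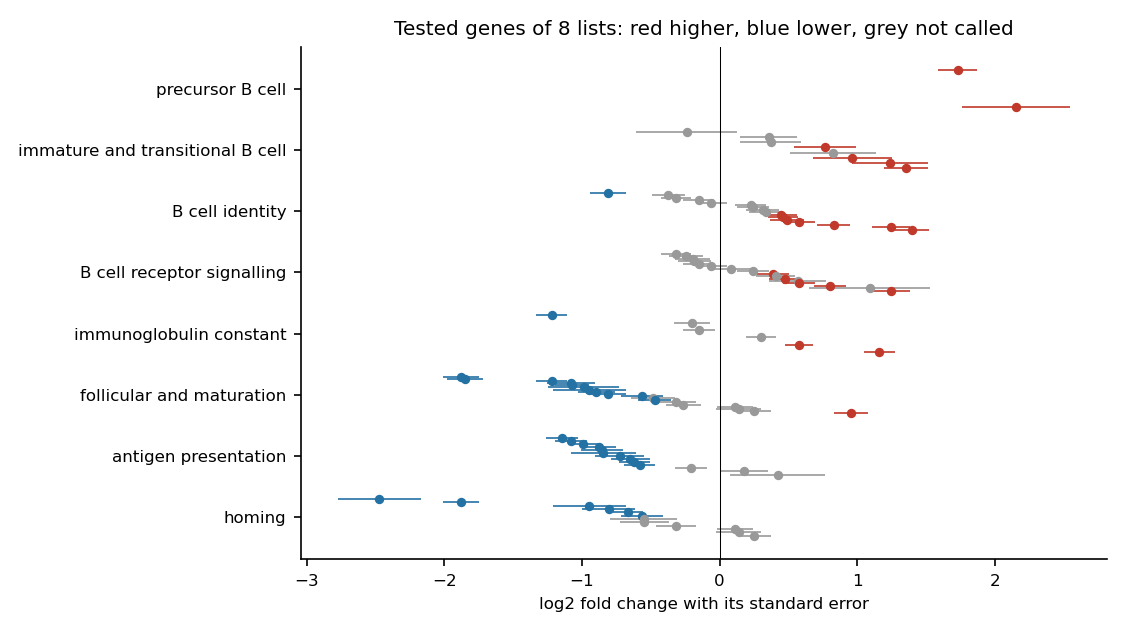
log2 fold change with its standard error (horizontal) of each tested gene in 8 gene lists, *Vpreb3* B cells against *Fcer2a* B cells; red genes were higher, blue lower, and grey not called. The antigen presentation list has 10 of 13 lower, and *Rag1* is left out of the precursor list.

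Of 6 division genes tested, 4 were higher and none lower, *Mki67*, *Top2a*, *Stmn1*, and *Tubb5*, and the calls rested on few cells and on the choice of cells. None was called without mouse 3, under the filter of 500 genes and 10% mitochondrial UMIs, with cells thinned to 2000 UMIs, or among members with at least 2 *Vpreb3* UMIs, where 2 to 4 could be tested. *Mki67* was at 28.3, 71.1, and 62.2 in members against 3.13, 7.34, and 21.3 (2.39 ± 0.40, adjusted p = 0.000205), a call lost without mouse 3 (1.76, adjusted p = 0.0623), among members with at least 2 *Vpreb3* UMIs (1.84, adjusted p = 0.0639), and under the filter of 500 genes (1.84, adjusted p = 0.305). *Tubb5*, a tubulin, rose by 0.39 ± 0.12 (adjusted p = 0.0476) and failed whichever mouse was left out. *Top2a* rose by 2.32 ± 0.47, though its groups overlapped, with mouse 2 at 14.1 against 15.6. It failed against all *Fcer2a* B cells (0.91, adjusted p = 0.39) and was too low to test without mouse 3 or without mixed droplets. *Mki67* was under the low-count filter in *Fcer2a* B cells of mice 2 and 3, so it entered the test only through the members. *Mki67* UMIs lay in 23 of 756 members, and the highest cell of each mouse together held 52.8% of them. The share of cells with a UMI of any of 5 division genes was 4.94% ± 0.623 in members and 7.06% ± 0.482 in *Fcer2a* B cells. It was lower in 3 of 3 mice (exact permutation p = 0.1, adjusted 0.125, and 0.25 when paired by mouse). Thinned to 2000 UMIs per cell, it was 2.51% ± 1.30 and 5.02% ± 1.95. When *Fcer2a* B cells with *Vpreb3* were added to the comparison class, *Mki67* did not pass (0.34, adjusted p = 0.783). Lists for B-1, marginal zone, plasma cell, and immediate early genes held at most 2 called genes each. These were *S100a6* and *Dusp2* higher (0.64 ± 0.19 and 1.27 ± 0.19), and *Cr2* and *Cd69* lower, with no plasma cell gene called. The *S100a6* groups overlapped, its call failed without mouse 2 or mouse 3, and its sign turned under other choices of cells. Among members with at least 2 *Vpreb3* UMIs it was at -0.69 without passing (adjusted p = 0.294), and with cells thinned to 2000 UMIs it was lower and passed (-1.62, adjusted p = 0.000966).

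By the rule for the largest changes, 12 genes were taken in each direction, not all of which are named here. *Col5a3*, a collagen chain, led those higher, at 62.9, 61.3, and 53.9 in members with 1 UMI in all *Fcer2a* B cells, a ratio of 82.1 with a counting interval of 14.6 to 3261. *Col5a3* passed the low-count filter through the members and had to be higher, so its place here is a description and no test. *Cplx2*, an exocytosis regulator, was at 104, 90.2, and 123 against 9.38, 10.3, and 7.98 (3.35 ± 0.29). *Atp1b1*, a sodium pump subunit, *Hes1*, a transcriptional repressor, and *Hivep3*, a zinc finger factor, rose by 2.59 ± 0.24, 2.30 ± 0.32, and 2.28 ± 0.24. *Mki67*, *Akap12*, *Klhl14*, *Akap17b*, and *Wfdc21* rose by 1.90 to 2.39. *Cplx2*, *Hes1*, and *Acta2* were under the low-count filter in *Fcer2a* B cells of every mouse. Like *Col5a3*, they passed through the members and had to be higher, so their values are a description and no test. *Atp1b1*, *Mki67*, *Klhl14*, *Akap17b*, and *Wfdc21* were under it in some mice of that class, and passed only with the members' counts. *Acta2*, a smooth muscle actin, met the rule too, but the highest cell of each mouse together held 79.3% of its UMIs, and without mixed droplets it was too low to test. Of the 12 lower genes, *Rapgef4*, an exchange factor for RAP proteins, fell most, from 92.3 ± 20.9 to 11.3 ± 0.730 (-3.03 ± 0.27). *Rapgef4* was under the low-count filter in members of every mouse. It passed through the *Fcer2a* class and had to be lower, so its place is a description and no test. *Ccr6*, *Lamb3*, and *Lax1* were under it in members of some mice, and passed only with the *Fcer2a* class. *Pgap1*, *Gimap3*, and *Gimap4* stood at -2.30 ± 0.12, -2.15 ± 0.13, and -2.11 ± 0.17. *Ccr6*, *Clec2i*, *Apoe*, *Lamb3*, *Bcl2*, *Lax1*, and *Neurl3* were also among them.

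Against the other 2 B cell classes, chosen for comparison after the data were seen, the members differed in 344 of 6793 genes (5.06%) from B cells with neither RNA, 155 higher (2.28%) and 189 lower (2.78%). From B cells with both they differed in 226 of 7350 (3.07%), 101 higher (1.37%) and 125 lower (1.7%), or 147 and 254 with the mouse as a block. The groups did not overlap in 23.3% and 21.4% of genes. Leaving out 1 mouse gave 53 to 97 higher and 81 to 111 lower against neither, with 53 and 81 without mouse 2 and 54 and 94 without mouse 3. Against both it gave 34 and 46 without mouse 2 and 25 and 31 without mouse 3. *Ighd*, *Cr2*, *Mef2c*, and *Ccr6* were not called against the class with neither, at -0.10 ± 0.11, 0.27 ± 0.22, -0.08 ± 0.12, and -0.66 ± 0.45. The same 4 genes were lower against the class with both, at -0.92 ± 0.11, -1.25 ± 0.15, -0.59 ± 0.11, and -2.62 ± 0.31. There too *Ccr6* passed the low-count filter only through the comparison class. *Spib*, *Cd24a*, *Cd72*, and *Chchd10* were higher in members in both comparisons. *Bcl2* was lower in both, at -0.99 ± 0.15 against neither and -1.23 ± 0.13 against both. Antigen presentation genes differed less than against *Fcer2a* B cells. Of 13 tested, 3 were lower against neither (median -0.33) and 5 against both (median -0.49), with none higher. With the mouse as a block, 4 and 9 were lower. These comparisons share the members and are not independent of the first.

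Within members, levels of several genes differed between cells with 1 and with 3 or more *Vpreb3* UMIs, which is described without a test because that number chose the cells. From 1 to 3 or more UMIs, *Cd24a* went from 407 ± 31.4 to 826 ± 38.6, *Chchd10* from 194 ± 15.2 to 573 ± 62.9, and *Spib* from 640 ± 83.2 to 1050 ± 97.2. *Bcl2* went from 111 ± 35.1 to 56.5 ± 5.88 and *H2-Aa* from 1489 ± 90.5 to 1124 ± 88.7. Mice 2, 3, and 4 moved alike for these 5 genes between the lowest and highest class. The class with 2 UMIs did not always lie between them. *Bcl2* in mouse 2 was at 72.4, 124, and 59.6 with 1, 2, and 3 or more UMIs. *Chchd10* and *Cd24a* in mouse 4 were lowest at 2 UMIs, and *H2-Aa* in mice 2 and 3 was highest there. *Ighd* did not move alike, going from 550, 793, and 967 to 650, 532, and 642 in mice 2, 3, and 4. A *Rag1* or *Rag2* UMI was present in 31 members (6, 14, and 11), of which 18 had *Cd93* and all had *Ighm*, the RNA of the IgM heavy chain. No *Il7r*, *Igll1*, or *Mki67* UMI was found in them. A *Bcl2* UMI was found in none of the 31, which allows up to 9.68% of such cells with a UMI and does not limit how many express the gene, and in 150 of the other 725. The median depth of those 31 was 2943, 3086.5, and 3417 UMIs in mice 2, 3, and 4, under the 3649, 3771, and 3601 of the rest.

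**Figure D5:**
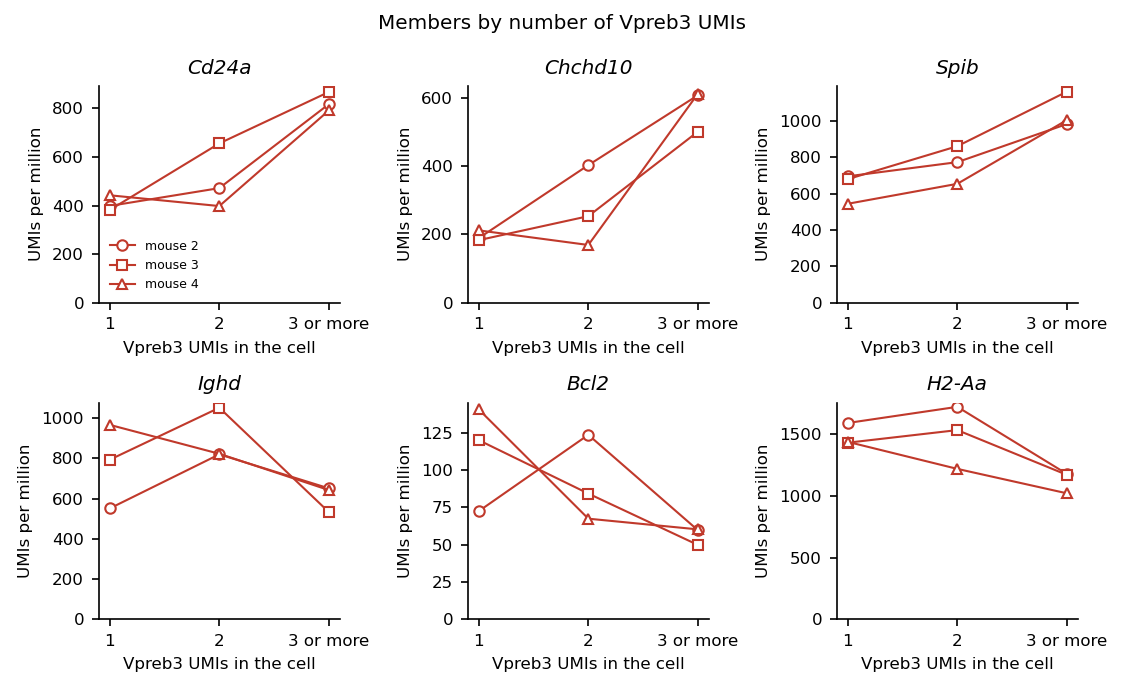
CPM (linear axes from 0) of 6 genes in *Vpreb3* B cells with 1, 2, and 3 or more *Vpreb3* UMIs; each line is 1 of 3 mice. *Cd24a*, *Chchd10*, and *Spib* are higher and *Bcl2* and *H2-Aa* lower at 3 or more UMIs than at 1 in each mouse, while *Ighd* is higher in mouse 2 and lower in mice 3 and 4.

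Other immune cells were taken as 1022 cells (251, 441, and 330) with *Ptprc*, at most 1 *Cd79a* or *Cd79b* UMI, none of *Ms4a1*, *Cdh5*, or *Epcam*, and fewer than 3 of *Col1a1* and *Col1a2*. Of 9665 genes, 2023 (20.9%) were higher and 2469 (25.5%) lower in *Vpreb3* B cells, 46.5% in all, and the groups did not overlap in 57.2%. Without mouse 3 or mouse 4 the higher genes numbered 1297 and 1313. B cell genes are tied to the gate, so they check the label here. *Ebf1*, a B lineage transcription factor, stood at 2377 ± 189 against 0.961 ± 0.304, and *Igkc* at 9436 ± 938 against 14.0 ± 6.14. *Chst3*, *Iglc1*, *Fcmr*, and *Pou2af1* were also among the 8 largest. *Ffar1* and *Klhl14*, at 0 in the other immune cells, were at least 152-fold and 124-fold higher. Genes at or near 0 in the other immune cells passed the low-count filter through the members and had to be higher. On the lower side, *Stfa2l1*, *Ccl9*, *Cd300ld*, *Ctsw*, *Pla2g7*, and *Il2rb* had no UMI in any member, and *Stfa2l1* was at least 1061-fold lower. *Gzma*, a granzyme, had 1 UMI in members, and *BC100530* was at 1.31 ± 0.229 against 1772 ± 318. Genes at or near 0 in members passed the low-count filter through the other immune cells and had to be lower, and the gate bars some T cell, NK cell, and neutrophil RNA, so these values describe the classes and no count over those lists is given.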

How the data were processed

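Lungs of 3 mice were profiled with the 10x Genomics v3 kit. The deposited counts are raw UMI counts per gene and cell, which the authors made with Cell Ranger 3.0.2 on mm10, per the submitters' processing notes. The annotation used in counting is not given in the sources used here. The feature and barcode files hold names only. Members, lists, and tests were chosen with earlier results of these data known.

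Each of 28692 features was kept, with 67 repeated symbols held apart. Cells were filtered, gated on raw UMIs, and summed per mouse and class. Kept libraries held 22300042, 20804836, and 23442355 UMIs. Sums were compared with edgeR 4.0.16 (R 4.3.3, filterByExpr, TMM, quasi-likelihood test, Benjamini-Hochberg adjustment, 0.05), and DESeq2 1.42.0 was an alternative. Genes used by the gate stayed in library totals and out of the tests. Named genes were the 12 largest called changes in each direction (8 against other immune cells) at a mean of at least 50 CPM in the higher class and in the same direction in all mice, without immunoglobulin variable segments and unnamed models, plus list members at 20 or more. Results of some genes are not reported here. Single values were compared over mice with exact 2-sided permutation tests (scipy 1.17.1), unpaired and adjusted over 5, and also paired by mouse. Sums of 1 number come from the same animal, and deviations of same-mouse sums correlated at 0.217, 0.140, and 0.327 over 3202 genes, and a blocked fit (mouse as the block) was also run. The mice are separate animals. Libraries differed beyond sampling noise (chi-square of 38.1, 9.12, and 31.6 for each degree of freedom), and no member barcode was shared between libraries.

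Doublets were scored with scanpy 1.11.5 and kept, and 46, 54, and 19 cells were marked, 1, 3, and 2 of them members. The automatic threshold marked under 0.5% in mice 2 and 3, where the highest scores were taken at 0.8% per 1000 cells instead. Promoter sequences are from RefSeq (GRCm38.p6).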

Additional observations from a re-analysis of the deposited data

Results flagged for a closer look

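Cells outside the gate held RNA of precursor genes, of which members had no *Dntt* or *Igll1* UMI. A further 27 cells (3, 17, and 7 in mice 2, 3, and 4) met every condition except that they had no *Ms4a1* UMI, and they enter no comparison above. They held 70 *Vpreb1* UMIs in 5 cells, above the limit of 3 counts that a count of 0 allows, while the 756 members held 3 *Vpreb1*, 87 *Rag1*, and 11 *Il7r* UMIs. The same 27 cells held 72 *Rag1* UMIs in 16 cells, 56 *Il7r* UMIs in 16, 28 *Dntt* UMIs in 6, and 29 *Igll1* UMIs in 5. *Mki67* gave 181 UMIs in 13 of them. Mouse 3 held most of the cells, and *Vpreb1* was at 0, 336, and 110 CPM in mice 2, 3, and 4.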

How the results depend on the processing

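DESeq2 called 124 genes higher and 186 lower than in *Fcer2a* B cells, the filter of 500 genes and 10% mitochondrial UMIs 88 and 96, and thinning to 2000 UMIs, which also moved cells between classes, 146 and 241. Leaving out 1 mouse gave 106 to 206 higher and 117 to 216 lower. Without mouse 2 the counts were 133 and 156, and without mouse 3 they were 106 and 117. Against other immune cells, DESeq2 called 1324 higher and 2200 lower, thinning gave 1114 higher and 1587 lower, and leaving out 1 mouse gave 1297 to 1729 higher. The *Ighd* share difference of -14.0 points was -11.3 against all *Fcer2a* B cells. The median UMI difference of -538.2 was -1031.5 under the stricter filter. The mitochondrial share difference of -1.38 points was -0.481 there, -1.98 with all deposited cells, and -0.875 against all *Fcer2a* B cells. The share of B cells was 53.3% under the stricter filter and 32.8% with at least 2 *Vpreb3* UMIs. Of 1311 recomputed values of 91 named genes, 1201 kept their call, 107 lost it, and 3 reversed. The reversed ones were *S100a6* at -0.69 with at least 2 *Vpreb3* UMIs (not passing) and -1.62 when thinned (passing), and *Tubb5* at -0.083 when thinned. Of the lost calls, 23 fell without mouse 3 and 21 under the stricter filter. Too low to test when thinned were *Rag1*, *Myl4*, *Mki67*, *Top2a*, *Acta2*, *Myb*, *Stmn1*, and *Bcl2l11*, and under the stricter filter *Rag1*, *Myl4*, *Top2a*, *Bcl2l11*, and *Lax1*. DESeq2 gave *Rag1* and *Myl4* no adjusted p. *Acta2* and *Top2a* were too low with at least 2 *Vpreb3* UMIs and without mixed droplets, *Top2a* also without mouse 3 and with all deposited cells, and *Rag1* without the members that defined the *Rag* class. The cause of these changes was not tested. The mouse as a replicate block gave 355 higher and 410 lower and lost no named gene's call. With it, 12 follicular, 11 antigen presentation, and 7 homing genes were lower, 5 immature genes were higher, and 8 transcription factors were higher and 3 lower, all within 1.5 times of the unblocked counts. Thinned median UMIs have no value and were not run.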

Other observations

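B cells with neither *Vpreb3* nor *Fcer2a* RNA (54, 108, and 77 cells) carried more RNA of genes on the B-1 list than the *Vpreb3* B cells did. Of 7 tested genes of that list, 6 were lower in *Vpreb3* B cells and none higher (edgeR adjusted p under 0.05, background 2.78% lower of 6793 genes). *S100a6*, a calcium-binding protein, was at 193, 273, and 144 CPM in *Vpreb3* B cells against 805, 627, and 912, without overlap, with a log2 fold change of -2.01 ± 0.17. *Zbtb32*, a transcriptional repressor, was at 3.14, 13.3, and 3.59 against 112, 75.9, and 92.7 (-3.51 ± 0.33). *Zbtb32* passed the low-count filter through the class with neither alone and had to be lower. Its value, though counted among the 6, is a description and no test. *Ahnak*, *Spn*, which encodes CD43, *Vim*, and *Bhlhe41* were the others, and the groups overlapped for *Bhlhe41*. Of 8 immediate early and stress genes tested, 5 were lower, *Fos*, *Jun*, *Junb*, *Egr1*, and *Ier2*, and 1 was higher, *Dusp2*, a phosphatase (0.71 ± 0.19, adjusted p = 0.0284), though *Jun* stood at 34.2, 265, and 37.6 in the class with neither, so mouse 3 sets its mean, and *Fos* at 6.21, 81.2, and 80.2 there overlapped the members at 22.0, 6.93, and 3.59. Without mouse 3, only *Ier2* of that list was called, without mouse 4 *Dusp2* was not called, without mouse 2 *Jun* was not called, and without mixed droplets *Fos* was not. Of the B-1 list, *Bhlhe41* failed whichever mouse was left out and *Spn* without mouse 3. Other-lineage RNA was uneven in the class with neither, where the macrophage list summed to 1299, 54.7, and 70.2 CPM, the epithelial list to 11229, 222, and 484, and the stromal list to 65.3, 63.6, and 1055. Without mixed droplets the same 6 genes of the B-1 list were lower. The comparison was added after the data were seen.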
